A study of Mus musculus and Homo sapiens with 27 samples.

Results

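The tubulins are the building blocks of microtubules, and 9 of their genes were followed here in the mouse colon carcinoma line MC38. They were chosen by name from the 56691 features of the MC38 12G count table: the alpha-tubulins Tuba1a, Tuba1b and Tuba1c, the beta-tubulins Tubb2a, Tubb2b, Tubb4b, Tubb5 and Tubb6, and the gamma-tubulin Tubg1. All 9 were in the table by their Ensembl IDs, and 8 of them were among the 11676 features that passed the filter on low counts. Tubb2b did not pass it and is described by its counts.

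Alpha- and beta-tubulin form the heterodimer from which microtubules polymerise, and gamma-tubulin sits in the ring complexes that start new microtubules. Alpha- and beta-tubulin are made on ribosomes in the cytosol and folded there by prefoldin, the CCT chaperonin and a set of tubulin cofactors. Their mRNAs are known for a form of self-control that acts during translation: when free tubulin dimers are in excess, the factor TTC5 binds the start of the growing tubulin chain on the ribosome, SCAPER links it to the CCR4-NOT deadenylase, and the mRNA is degraded.

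The study applied proximity labelling driven by bioluminescence to RNA, in MC38 and in HEK293T, a human embryonic kidney line. All cells stably carried an enzyme that the labels name LAP, sited at what they abbreviate ERM, taken to be the endoplasmic reticulum (ER) membrane. The labelling protocol gave cells 10 mM PA, a compound the labels do not spell out, together with 50 µM of the luciferase substrate furimazine over 15 to 60 min, after which biotin was attached to the RNA by click chemistry and biotinylated RNA was captured on streptavidin beads. MC38 12G has 3 groups of 3 libraries. Label_Enrich, called labelled capture here, is bead-captured RNA from labelled cells. Label_Input, called input, is the portion of labelled-cell RNA set aside ahead of the beads. NonLabel_Enrich, called unlabelled capture, is bead-captured RNA whose titles mark it as unlabelled, and the labels give no separate protocol for it. The sources used here do not state whether the MC38 line was a single clone or whether replicates were separate cultures, so p-values measure the spread between these libraries, which may be technical. The HEK293T table holds 57992 human IDs, of which 0 are named in the reference used here, so the human tubulins were not analysed here.

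The 9 MC38 12G libraries held 13127181 to 18614808 counts each, and 1 feature that is no tubulin took 58.5% to 80.9% of them. Counts outside that feature were lower in input (2702728 to 3205266) than in labelled capture (5795001 to 7727524) or unlabelled capture (4753728 to 5209883), so input values are the least precise. Of 9 epithelial markers, 0 exceeded 1 CPM (counts per library size, rescaled between libraries) in any group, and Epcam, Cdx2 and Krt20 had no counts in any of the 9 libraries. Their summed level ran from 0.755 to 0.948 CPM in labelled capture, from 1.29 to 1.52 CPM in input and from 1.14 to 1.24 CPM in unlabelled capture. All 5 mesenchymal markers, Vim and Fn1 among them, were above 1 CPM. Cdh1, which encodes E-cadherin, made up most of the epithelial sum, at 0.997 CPM in input, 0.800 in unlabelled capture and 0.663 in labelled capture, just under the 1 CPM mark in input. The other 8 epithelial markers were at 0.241 CPM or less in every group.

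The coding starts of the tubulins are shown because, in alpha- and beta-tubulin, they encode the segment that TTC5 reads. They also show how alike the genes are to a read counter. Each line gives the first 30 coding bases in the GENCODE M21 transcripts (build GRCm38), 5′ to 3′, with the first 4 codons in capitals.
Tuba1a: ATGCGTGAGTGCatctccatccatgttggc
Tuba1b: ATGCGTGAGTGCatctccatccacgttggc
Tuba1c: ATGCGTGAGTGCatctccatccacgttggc
Tubb2a: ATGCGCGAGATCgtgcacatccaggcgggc
Tubb2b: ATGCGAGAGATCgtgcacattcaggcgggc
Tubb4b: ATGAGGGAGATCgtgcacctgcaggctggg
Tubb5: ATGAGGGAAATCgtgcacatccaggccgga
Tubg1: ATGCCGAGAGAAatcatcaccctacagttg

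The capital letters were the same in Tuba1a, Tuba1b and Tuba1c, and over all 30 bases Tuba1a differed from both others at 1 position. Among the printed beta-tubulins, Tubb2a and Tubb2b differed at 2 of 30 positions and Tubb4b and Tubb5 at 5. Tubg1 differed from every other printed start at 7 or 8 of the first 12 bases. Alpha and beta members each had 4 exons in the annotation, Tubg1 had 11, and coding lengths with the stop codon lay between 1335 and 1356 nucleotides (nt). The likeness extends through the alpha genes, which lie next to each other on chromosome 15 in the order Tuba1b, Tuba1a, Tuba1c. Of all 100-base windows, 65.8% in Tuba1a, 73.0% in Tuba1b and 53.4% in Tuba1c also occurred in the transcripts of another gene. The share was 36.9% in Tubb2a, 27.7% in Tubb2b and 30.6% in Tubb4b, the last mainly shared with the pseudogene Tubb4b-ps1, which had 101 counts over all 9 libraries. For Tubb5 and Tubb6 it was 0, and for Tubg1 4.11%. The sources used here do not state how reads with several matches were handled, so the split of counts among the alpha genes, and between Tubb2a and Tubb2b, is uncertain. The level of the alpha genes relative to Tubb5 is uncertain for the same reason.

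Tubb5, the main beta-tubulin of dividing cells, had the highest counted level of the 9 tubulin mRNAs in all 3 groups. Per kilobase of transcript, its level in input was 189 CPM per kb, followed by Tuba1b at 62.6, Tuba1a at 48.1, Tuba1c at 41.7, Tubb4b at 39.5 and Tubb6 at 38 CPM per kb. Library values of Tuba1c and Tubb4b overlapped, as did those of Tubb4b and Tubb6, so the order of these neighbours was not resolved in input. Tubg1 followed at 9.59, Tubb2a at 2.38 and Tubb2b at 0.116 CPM per kb. In labelled capture Tubb5 stood at 146 CPM per kb, Tuba1b at 47.3 and Tuba1a at 38.7, and Tubb4b, Tubb6 and Tuba1c came next, at 31.4, 30.3 and 28.7 CPM per kb with overlapping libraries between neighbours. In unlabelled capture the order was again led by Tubb5 (150 CPM per kb) and Tuba1b (46.5), while Tubb6 (34.8) and Tuba1a (34.7) could not be ordered, nor could Tuba1c (32.5) and Tubb4b (31.6). The rank of the alpha genes is open to the shared windows given above. This order covers the 9 chosen genes: Tubb3, outside the set, had 47.6 CPM per kb in input, with libraries that overlapped those of Tuba1a, 45.9 in labelled capture and 44.1 in unlabelled capture.

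Compared with input, 7 of the 8 tubulins tested fell in labelled capture, and 0 rose (0 also at an unadjusted p under 0.05 in edgeR and 0 in DESeq2). The drop was moderate, between 0.31 and 0.54 on the log2 scale, and it covered alpha-, beta- and gamma-tubulin. Of all 11676 features tested, 14.6% were called lower in this comparison and 14.2% were called higher, at an adjusted p under 0.05 in edgeR's quasi-likelihood test with Benjamini-Hochberg adjustment. The median log2 fold change was -0.35 over the 8 tubulins and -0.02 over all tested features, whose interquartile range ran from -0.28 to 0.21. Levels are relative to the bulk of tested mRNAs in a library. A fall is thus a lower relative level in captured RNA than in input, and these values do not give absolute amounts.

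Tuba1c, one of the broadly expressed alpha-tubulins, fell most. Its levels were 82.5, 83.5 and 81.8 CPM in the 3 input libraries and 59.9, 53.7 and 56.8 CPM in labelled capture. All labelled capture libraries lay below all input libraries, as they did for 7 of the 8 tubulins and for 20.4% of all tested features, and the log2 fold change was -0.54 ± 0.06 (SE, n = 3 per group; edgeR adjusted p = 1.08e-12). Tuba1b, with the highest counted level of the alpha genes, had 109, 112 and 106 CPM in input and 87.5, 81.5 and 78.5 CPM in labelled capture. These groups did not overlap either, and Tuba1b fell by 0.40 ± 0.05 on the log2 scale (edgeR adjusted p = 1.46e-09). Tuba1a, best known as the alpha-tubulin of developing neurons, had 83.4, 87.9 and 88.6 CPM in input and 71.4, 66.2 and 71.6 CPM in labelled capture. It fell by 0.31 ± 0.05 (edgeR adjusted p = 3.28e-06), again with the groups apart.

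Among the beta-tubulins, Tubb5 had 516, 482 and 505 CPM in input and 385, 393 and 382 CPM in labelled capture. Every labelled capture library was lower than every input library, and the log2 fold change was -0.37 ± 0.04 (edgeR adjusted p = 1.63e-11). Tubb4b, a widely expressed isotype that also serves cilia, had 66.8, 58.3 and 64.1 CPM in input and 51.7, 50.4 and 48.5 CPM in labelled capture. Its groups were apart and it fell by 0.33 ± 0.06 (edgeR adjusted p = 6.73e-06). Tubb6 had 69.5, 68.1 and 62.7 CPM in input and 52.7, 52.6 and 54.4 CPM in labelled capture. It fell by 0.33 ± 0.06 as well (edgeR adjusted p = 4.71e-06), with tightly grouped captured libraries.

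Tubg1, which nucleates microtubules and is not part of the dimer, had 17.7, 18 and 16.1 CPM in input and 14.3, 12.4 and 12.9 CPM in labelled capture. The groups were apart, and Tubg1 fell by 0.38 ± 0.09 (edgeR adjusted p = 0.000737). Tubb2a was the exception among the tested genes, with 3.73, 3.57 and 4.21 CPM in input and 4.75, 3.98 and 4.70 CPM in labelled capture. Its groups overlapped, its counts in input were only 25 to 36, and its log2 fold change of 0.22 ± 0.18 did not pass the test (edgeR adjusted p = 0.414). Tubb2b, which is close in sequence to Tubb2a, had 2 counts in each input library and 10, 3 and 27 counts in the labelled capture libraries. In a fit without the low-count filter its log2 fold change was 1.2 ± 0.64 (edgeR adjusted p = 0.30), and 1 labelled capture library held 27 of its 40 counts in that group.

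**Figure D1:**
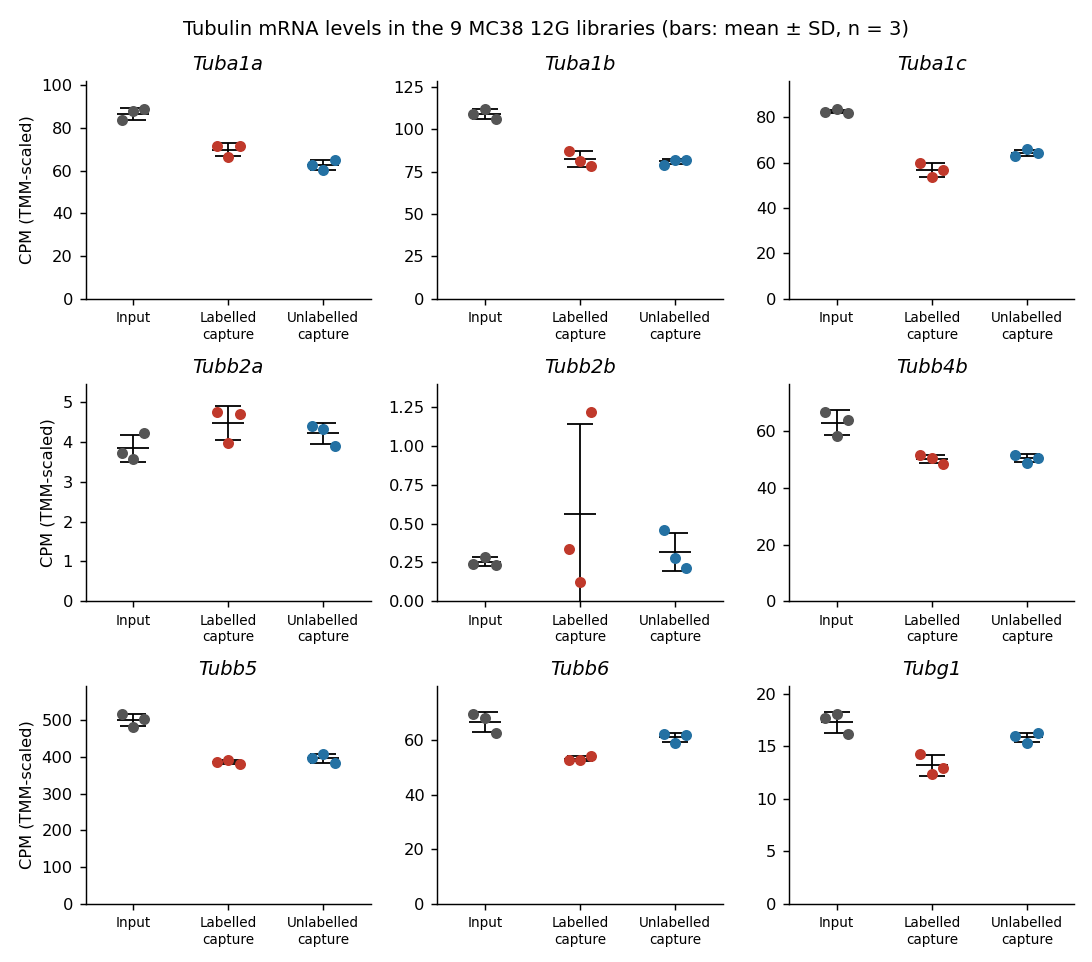
Level of each tubulin mRNA in the 9 MC38 12G libraries, in CPM on library sizes scaled by the trimmed mean of M values (TMM), with 1 point per library and bars for mean ± SD (n = 3; the bar of Tubb2b is cut at 0). Each panel has its own vertical axis from 0; for 7 genes all labelled capture points lie below all input points, and Tubb2a and Tubb2b do not show this.

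Unlabelled capture, the background of the capture step, was compared with input in the same way. Of the 8 tubulins tested, 5 fell and 0 rose (0 also at an unadjusted p under 0.05 in edgeR and 0 in DESeq2), where 14.7% of all tested features were called lower and 14.8% higher. This comparison shares its input libraries with the one above, and its captured libraries with the one that follows. Tuba1a had 62.8, 60.2 and 64.7 CPM in unlabelled capture, below all of its input values, with a log2 fold change of -0.47 ± 0.06 (edgeR adjusted p = 1.77e-10). Tuba1b had 79.1, 82.0 and 82.2 CPM and fell by 0.43 ± 0.05 (edgeR adjusted p = 4.56e-10). Tuba1c had 63.1, 65.8 and 64.2 CPM and fell by 0.36 ± 0.06 (edgeR adjusted p = 3.81e-07). All 3 alpha genes were thus lower in unlabelled capture than in input without overlap, as were 19.3% of all tested features.

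Of the beta genes in unlabelled capture, Tubb5 had 398, 408 and 383 CPM and fell by 0.34 ± 0.04 against input (edgeR adjusted p = 5.70e-10). Tubb4b had 51.7, 49.0 and 50.6 CPM and fell by 0.33 ± 0.06 (edgeR adjusted p = 1.55e-05). With the trend of fold change on transcript length removed, Tubb4b was at -0.12 and no longer past the threshold (edgeR adjusted p = 0.131). Tubb6, Tubg1 and Tubb2a did not pass the test. Tubb6 had 62.2, 59.1 and 62.0 CPM in unlabelled capture, just below its input libraries, and a log2 fold change of -0.13 ± 0.06 (edgeR adjusted p = 0.0953). Tubg1 had 15.9, 15.3 and 16.2 CPM, overlapping input, and a value of -0.12 ± 0.09 (edgeR adjusted p = 0.350). Tubb2a had 4.40, 4.33 and 3.9 CPM and a value of 0.13 ± 0.19 (edgeR adjusted p = 0.681), and Tubb2b had 8, 5 and 4 counts.

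Set against unlabelled capture, the labelled capture libraries showed no common direction of the tubulins. Of the 8 tested, 1 rose, 3 fell and 4 did not pass the test, where 10.4% of all tested features were called higher and 9.63% lower, 20.1% in all. The median log2 fold change of the tubulins was -0.02, and that of all tested features was 0.00. Tuba1a rose by 0.16 ± 0.05 (edgeR adjusted p = 0.0212): its lowest labelled capture library, at 66.2 CPM, was above its highest unlabelled one, at 64.7 CPM, a separation seen upwards in 17.6% of all tested features. That call was lost when labelled capture replicate 1 or 3 or unlabelled capture replicate 2 was left out, with log2 fold changes of 0.14, 0.14 and 0.13 and edgeR adjusted p-values of 0.109, 0.114 and 0.0759.

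Tuba1c moved the other way from Tuba1a, falling by 0.18 ± 0.05 (edgeR adjusted p = 0.00838), with 53.7 to 59.9 CPM in labelled capture and 63.1 to 65.8 CPM in unlabelled capture. The captures did not overlap, with the labelled one lower, for 3 of the 8 tubulins and for 17% of all tested features. Without labelled capture replicate 2 its value was -0.14 and did not pass the test (edgeR adjusted p = 0.115). Tubb6 fell by 0.20 ± 0.05 (edgeR adjusted p = 0.00357), from 59.1 to 62.2 CPM in unlabelled capture to 52.6 to 54.4 CPM in labelled capture. It was past the threshold in all 19 alternative settings tried. Tubg1 fell by 0.26 ± 0.08 (edgeR adjusted p = 0.0107), from 15.3 to 16.2 CPM to 12.4 to 14.3 CPM. Without labelled capture replicate 2 its value was -0.21 and did not pass the test (edgeR adjusted p = 0.0843).

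The tubulins with the highest counted levels were among those whose captures could not be told apart. Tubb5 had 382 to 393 CPM in labelled capture and 383 to 408 CPM in unlabelled capture, with a log2 fold change of -0.04 ± 0.04 (edgeR adjusted p = 0.612). Tuba1b had a value of 0.03 ± 0.05 (edgeR adjusted p = 0.773) and Tubb4b one of -0.01 ± 0.06 (edgeR adjusted p = 0.965). The libraries of both groups overlapped for each of these 3 genes. For Tubb2a the value was 0.09 ± 0.15 (edgeR adjusted p = 0.726), and for Tubb2b, fitted without the filter, 0.79 ± 0.48 (edgeR adjusted p = 0.487).

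**Figure D2:**
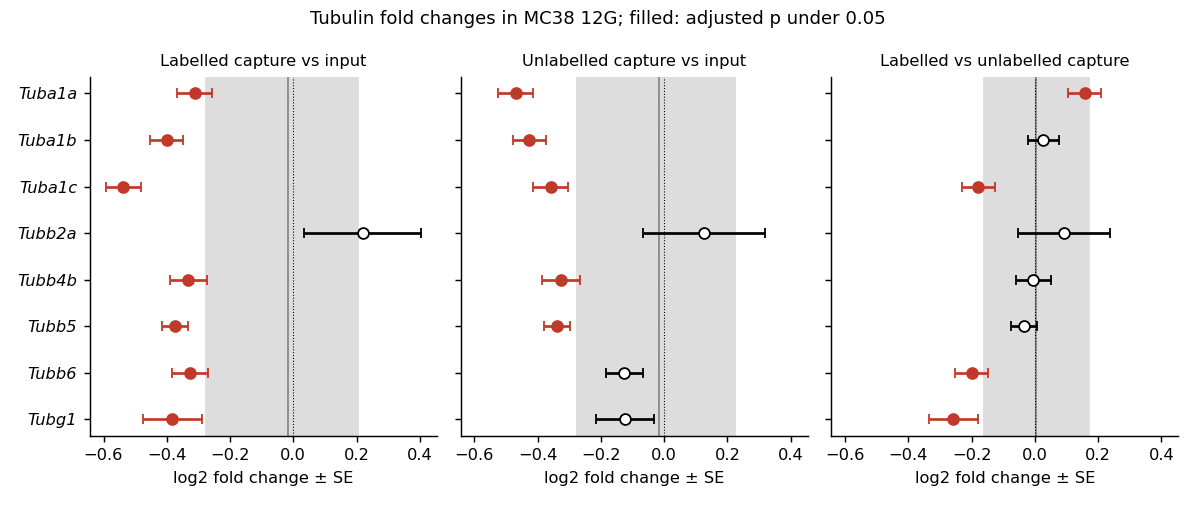
Log2 fold change ± SE of the 8 tested tubulins in the 3 comparisons of the MC38 12G groups (n = 3 libraries per group), with filled points where the edgeR adjusted p was under 0.05. The grey band is the interquartile range of all 11676 tested features and the grey line their median; 7, 5 and 4 points are filled from left to right, and in the right panel they lie on both sides of 0.

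The make-up of the chosen set was compared as shares of counts within each library, which do not depend on library scaling. Alpha counts here are the sum over the 3 chosen alpha genes and beta counts the sum over the 5 chosen beta genes, so Tuba4a and Tubb3, described below, are not in them. Tuba1a made up 32.7%, 32.9% and 34.6% of these alpha counts in labelled capture, 30.3%, 31.0% and 32.0% in input and 30.6%, 28.9% and 30.7% in unlabelled capture. Its share was higher in labelled capture than in either other group without overlap. Tuba1c made up 27.4%, 26.7% and 27.5% in labelled capture, 30.0%, 29.5% and 29.6% in input and 30.8%, 31.7% and 30.4% in unlabelled capture, so that its 3 groups were apart from each other. The share of Tuba1b overlapped in all comparisons, with means of 39.5%, 39.2% and 39.0%. Since the alpha genes share most of their sequence, these shares depend on how reads common to them were assigned.

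Among the 5 chosen beta genes, Tubb5 held 77.8% to 78.6% of the counts in labelled capture, 78.6% to 79.4% in input and 76.7% to 78.4% in unlabelled capture. Tubb6 held 10.5% to 11.1% in labelled capture, 9.85% to 11.1% in input and 11.4% to 12.4% in unlabelled capture, where every library was above all others. Tubb2a held 0.796% to 0.961%, 0.568% to 0.662% and 0.781% to 0.851% in the same order, with input below both captures. The ratio of alpha to beta counts had means of 0.422 in labelled capture, 0.439 in input and 0.406 in unlabelled capture, with overlapping libraries in every comparison and exact permutation p-values of 0.5, 0.3 and 0.2 (2-sided). It is a ratio of counts, and it need not be the ratio of mRNAs. Most alpha sequence is shared between genes and that of Tubb5 is not, so its level depends on how shared reads were handled. Over the 24 tests of shares and ratios, 3 libraries against 3 could not give an exact permutation p under 0.1. That smallest value was reached 11 times, and the lowest p after Benjamini-Hochberg adjustment was 0.218, so no difference in make-up passed a threshold of 0.05.

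Summing instead over all 8 alpha- and all 8 beta-tubulins of the gene lists, a choice made after seeing the data, lowered the share of Tubb5 to 66.2% to 66.7% of beta counts in labelled capture, 68.9% to 69.3% in input and 65.5% to 67.8% in unlabelled capture. Tubb3 then held 14.4% to 15.1%, 11.8% to 12.6% and 13.3% to 14.5% in the same order, and Tuba4a held 8.94% to 9.82%, 10.1% to 11.4% and 10.3% to 11.0% of alpha counts. The 11 differences with groups apart among the chosen genes were apart here too. The ratio of alpha to beta counts had means of 0.397 in labelled capture, 0.431 in input and 0.392 in unlabelled capture, and the last was below input without overlap (2-sided exact permutation p = 0.1, the smallest that 3 against 3 can give; 0.2 after Benjamini-Hochberg adjustment). The level of this ratio also depends on how shared reads were handled.

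**Figure D3:**
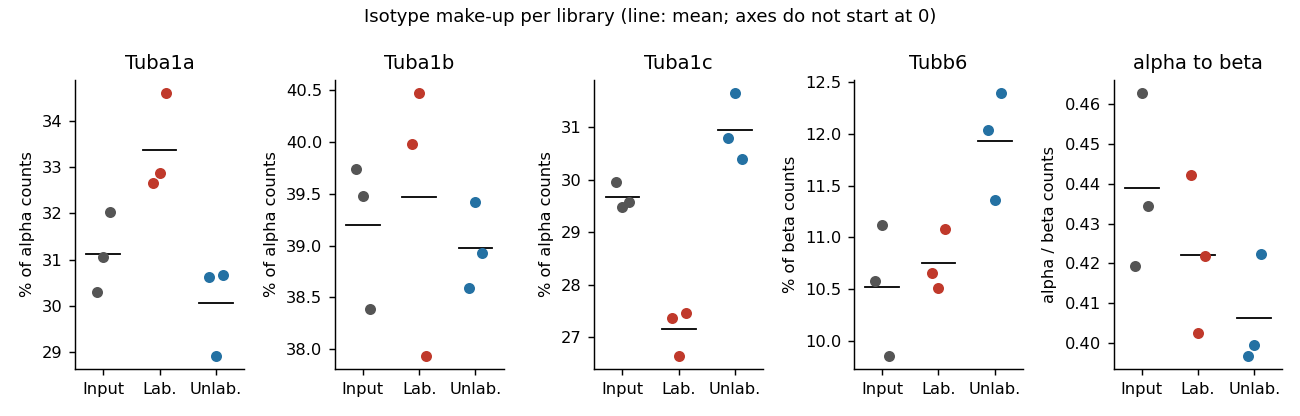
Share of alpha counts held by Tuba1a, Tuba1b and Tuba1c, share of beta counts held by Tubb6, and ratio of alpha to beta counts, all over the chosen alpha and beta genes only, with 1 point per MC38 12G library (input, labelled capture, unlabelled capture) and a line for each mean. The vertical axes do not start at 0; Tuba1a is highest and Tuba1c lowest in labelled capture, and the alpha to beta ratios of the 3 groups overlap.

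Other tubulin genes outside the chosen set were mostly too low to test: 4 of 11 passed the filter. Tuba4a, a further alpha-tubulin, had 30.9, 36.5 and 32.3 CPM in input, 21.5, 20.7 and 22.5 CPM in labelled capture and 24.8, 24 and 26 CPM in unlabelled capture. All libraries of the 3 groups were apart, and Tuba4a fell by 0.62 ± 0.07 in labelled capture against input (edgeR adjusted p = 1.05e-10) and by 0.41 ± 0.07 in unlabelled capture (edgeR adjusted p = 8.51e-06). Between the captures it fell by 0.21 ± 0.06 (edgeR adjusted p = 0.0138), a call lost without labelled capture replicate 1 (edgeR adjusted p = 0.0534) or 2 (0.0809) or unlabelled capture replicate 3 (0.0748). The call was also lost without the low-count filter (edgeR adjusted p = 0.111) and with 3G counts (0.141). Of its 100-base windows, 46.7% also occurred in another gene, mainly Stk16. Tubb3, known as the neuronal beta-tubulin, was expressed at 86.9 to 91.8 CPM in input, 83.1 to 88.8 CPM in labelled capture and 80.3 to 85.0 CPM in unlabelled capture. Its log2 fold change in labelled capture was -0.05 ± 0.05 against input (edgeR adjusted p = 0.490) and 0.06 ± 0.05 against unlabelled capture (edgeR adjusted p = 0.444).

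The factors that act on tubulin were then read from gene lists. Of the 13 genes of the self-control pathway tested (TTC5, SCAPER and CCR4-NOT subunits), 1 rose and 3 fell in labelled capture against input, where 14.2% of all tested features were called higher and 14.6% lower, with a median log2 fold change of -0.10. Counts of this size in a list of 13 are near those shares. Cnot9 fell by 0.36 ± 0.07 and Cnot4 by 0.41 ± 0.16, the latter a call lost in 7 of 19 alternatives, and Cnot6, the most abundant gene not called, was at -0.03 ± 0.09. Cnot1, the scaffold of CCR4-NOT, rose by 0.14 ± 0.05, a call lost in 7 of 19 alternatives, among them the removal of labelled capture replicate 2 or 3 or input replicate 1 or 2. Against unlabelled capture, Scaper rose from 1.55 ± 0.24 to 2.77 ± 0.58 CPM (SD, n = 3), a log2 fold change of 0.83 ± 0.22 (edgeR adjusted p = 0.00338). Without labelled capture replicate 2 that call was lost (edgeR adjusted p = 0.0574), as it was with 3G counts (edgeR adjusted p = 0.0573). Cnot3 fell by 0.31 ± 0.08 in the same comparison and the other 11 genes did not pass the test. Of all tested features, 10.4% were called higher and 9.63% lower there.

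For the folding machinery, labelled capture against input gave 1 gene higher and 2 lower of 7 folding cofactors. Of 8 CCT chaperonin subunits, 1 was higher and 1 lower. The prefoldin list of 7 genes, which includes Pdcl3, a gene outside prefoldin itself, had 0 higher and 3 lower. In that list 0 were higher also at an unadjusted p under 0.05 in edgeR and 0 by DESeq2. Set beside the 14.2% of all tested features called higher and 14.6% lower, the cofactor and chaperonin counts are near the background. The list medians were -0.04, -0.03 and -0.38 on the log2 scale. Tbcd, a cofactor that helps to assemble and disassemble the dimer, rose by 0.43 ± 0.07. Pdcl3, a phosducin-like helper of the chaperonin, fell by 0.43 ± 0.08, and the prefoldin subunit Pfdn5 fell by 0.38 ± 0.10. With the length trend removed, Pfdn5 was at -0.08 and did not pass the test (edgeR adjusted p = 0.627), while the cofactor Tbca, which had fallen by 0.31 ± 0.09, passed it in the opposite direction at 0.24 ± 0.08 (edgeR adjusted p = 0.0277). Arl2, the other cofactor called lower, was at -0.19 and lost its call (edgeR adjusted p = 0.330), so neither cofactor was then lower. The most abundant genes not called were Tbcb at -0.16 ± 0.12, Cct3 at 0.08 ± 0.05 and Pfdn2 at -0.01 ± 0.12. Against unlabelled capture, 3 of 8 chaperonin subunits rose and 0 fell (0 also at an unadjusted p under 0.05 in edgeR and 0 in DESeq2), with a median of 0.13. Of all tested features, 10.4% were called higher and 9.63% lower in that comparison. Cct8 rose by 0.26 ± 0.05 and Cct6a by 0.18 ± 0.05, and the count was 2 to 6 over the alternatives, with 5 under the replicate block. Of the 7 genes of the prefoldin list, 0 passed the edgeR test against unlabelled capture, 1 was higher at an unadjusted p under 0.05, and DESeq2 called 0.

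Microtubule-binding proteins, motors and genes of the gamma-tubulin ring were counted against the same shares, 14.2% higher and 14.6% lower. Of 27 microtubule-binding proteins tested, 9 rose and 0 fell in labelled capture against input, with a median log2 fold change of 0.14. Dctn1, the dynactin subunit that binds microtubules, rose by 0.57 ± 0.06, and Numa1, a spindle pole protein, by 0.54 ± 0.07. Of 23 motor genes, 8 rose and 2 fell, with a median of 0.12. Kif1c, a kinesin, rose by 0.64 ± 0.06 and Dync1h1, the heavy chain of cytoplasmic dynein, by 0.50 ± 0.05, while the dynein light chains Dynlrb1 and Dynll1 fell by 0.64 ± 0.08 and 0.41 ± 0.07. Of 11 genes of the gamma-tubulin ring and its anchors, 3 rose and 0 fell: Pcnt, a scaffold of the centrosome, rose by 0.83 ± 0.11 and Cdk5rap2, an anchor of the ring, by 0.51 ± 0.08. Tubg1 fell in the comparison in which these anchors rose. With the length trend removed, 3 microtubule-binding genes and 1 ring gene were called lower and 8 and 2 higher. With it left in, 1 gene of each list was lower at an unadjusted p under 0.05 in edgeR, and DESeq2 called 0 lower. The most abundant genes not called were Stmn1, which binds tubulin dimers, at -0.16 ± 0.07, and Pafah1b1, a dynein regulator, at 0.16 ± 0.06. The most abundant ring gene not called was Tubgcp2 at -0.09 ± 0.08. In unlabelled capture against input, Pcnt, Cdk5rap2, Dctn1 and Numa1 also rose, by 0.96, 0.41, 0.56 and 0.58. Kif1c and Dync1h1 rose there by 0.79 and 0.51, and Dynlrb1 and Dynll1 fell by 0.72 and 0.45. The ring list had 4 genes higher and 0 lower there, where 14.8% of all tested features were called higher and 14.7% lower. Between the captures, Pcnt, Cdk5rap2, Dctn1 and Numa1 were at -0.13, 0.10, 0.01 and -0.04, none called. Kif1c fell there by 0.14 (edgeR adjusted p = 0.0408), a call kept in 11 of 19 alternatives.

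Against unlabelled capture, 10.4% of all tested features were called higher and 9.63% lower. The microtubule-binding list had 1 gene higher and 6 lower in that comparison, with a median of -0.09. Camsap1, which binds microtubule minus ends, fell by 0.40 ± 0.08 and Nav1 by 0.39 ± 0.07. Among the motors 2 rose and 2 fell, and Kif23, a kinesin of cytokinesis, rose by 0.65 ± 0.07 while Dync1h1 was at -0.01 ± 0.04 and not called. Of 18 tubulin-modifying enzymes tested, 0 rose and 3 fell against unlabelled capture. The counts were also 0 and 3 against input, where 14.2% of all tested features were called higher and 14.6% lower. In both comparisons, 0 were higher at an unadjusted p under 0.05 in edgeR and 0 by DESeq2. Sirt2, a tubulin deacetylase, fell by 0.60 ± 0.11 against input, where Ttll12 was at -0.09 ± 0.07 and not called, and Vash2, which removes the terminal tyrosine of alpha-tubulin, fell by 0.39 ± 0.10 against unlabelled capture.

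The actin list covers the other main cytoskeletal filament system. Beside the actins Actb and Actg1 it holds genes that are not actins, among them Actn4, Pfn1 and Tmsb4x. Against input, of 7 tested, 6 fell and 1 rose, with a median of -0.44, where 14.6% of all tested features were called lower and 14.2% higher. Actb was at 1391 ± 34 CPM in input and 989 ± 4.5 CPM in labelled capture (SD, n = 3) and fell by 0.49 ± 0.04. Actg1 fell by 0.44 ± 0.05, and Actn4, an actin cross-linker, rose by 0.26 ± 0.05. Against unlabelled capture, 3 fell and 1 rose, Actg1 falling by 0.23 ± 0.04, where 9.63% of all tested features were called lower and 10.4% higher. The gene that rose was Tmsb4x, by 0.25 ± 0.07, a call kept in 14 of 19 alternatives. Pfn1 fell by 0.14 ± 0.04, kept in 15 of 19. In unlabelled capture against input, 5 genes of the actin list fell and 1 rose, beside 14.7% of all tested features lower and 14.8% higher. Actb fell there by 0.40 ± 0.04 and Actg1 by 0.22 ± 0.05, and Actn4 rose by 0.39 ± 0.05.

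**Figure D4:**
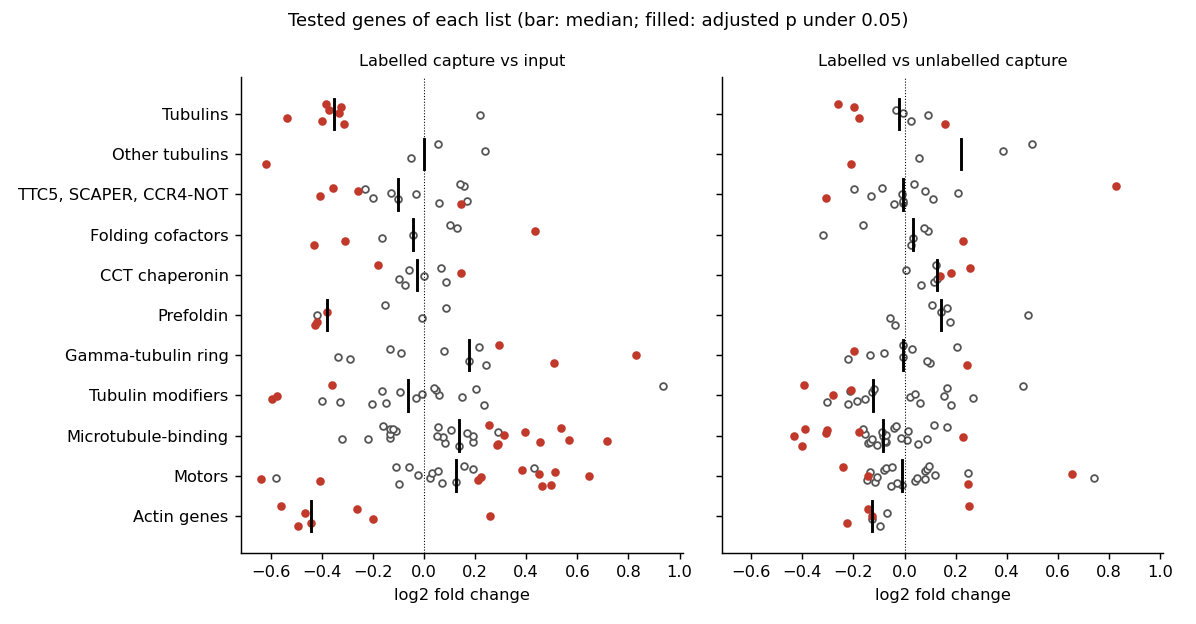
Log2 fold change of each tested gene by list in labelled capture against input (left) and against unlabelled capture (right), MC38 12G, with 1 point per gene, filled where the edgeR adjusted p was under 0.05, and a bar at the list median. On the left the medians of the tubulins and of the actin list (marked Actin genes) are -0.35 and -0.44, and the microtubule-binding median is 0.14. On the right the tubulin median is -0.02.

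Among 2196 other genes averaging 20 CPM or more, those whose levels over the 9 libraries were most like the mean of the alpha- and beta-tubulins were 4 genes of the translation machinery and a glycolytic enzyme. Pearson's r was 0.994 for Rpsa, 0.994 for Rpl13, 0.992 for Rplp1, 0.992 for Aldoa and 0.991 for Fau. These are descriptions over libraries that share 3 groups and their scaling. The genes were picked by this likeness, so a fall against input and little change between captures were largely set by the choice. Their log2 fold changes in labelled capture against input were -0.91, -0.62, -1.15, -0.45 and -0.61, each further below 0 than the tubulin median of -0.35, and against unlabelled capture they lay between -0.05 and -0.01 with none past the threshold.

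Transcript length moved with the fold change against input. The tested tubulins and Tubb2b had transcripts of 1598 to 2649 nt, with a median of 1802 nt, and the median over tested features was 3067 nt, with a length known for 98.8% of them. In the class from 1500 to 2000 nt, the 1216 genes had a median log2 fold change of -0.14 in labelled capture against input, -0.15 in unlabelled capture against input and 0.03 between the captures. With the length trend removed in the fit, the tubulin median was -0.22 in labelled capture against input, and 7 tubulins were still lower. Tubb5 was then at -0.34 and Tuba1c at -0.44. Tuba1b was at -0.26, Tuba1a at -0.18, Tubb4b at -0.17 (edgeR adjusted p = 0.0245), Tubb6 at -0.19 and Tubg1 at -0.25 (edgeR adjusted p = 0.0302). Between the captures, Tuba1a was at 0.12 and lost its call (edgeR adjusted p = 0.0672), while Tuba1c, Tubb6 and Tubg1 kept theirs. In unlabelled capture against input, Tubb6 and Tubg1 turned to 0.04 and 0.04, neither past the threshold.

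**Figure D5:**
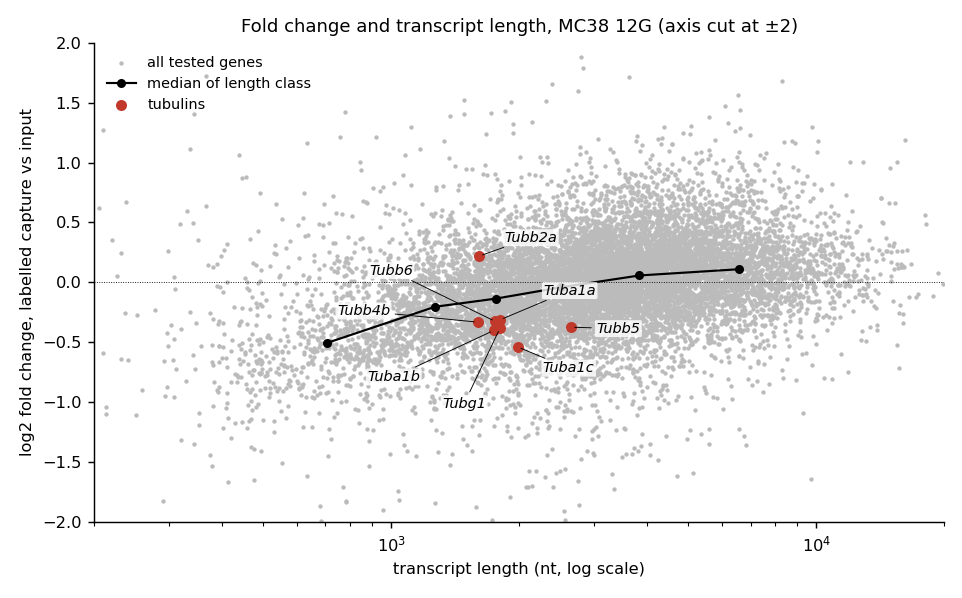
Log2 fold change in labelled capture against input over transcript length (nt, log axis) for the tested MC38 12G features with a known length (grey), the medians of 6 length classes (black, joined by a line) and the 8 tested tubulins (red, named). The class medians rise from -0.50 under 1000 nt to 0.11 above 5000 nt, and all tubulins but Tubb2a lie below the line.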

How the data were processed

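The authors deposited raw read counts, 1 whole number for each Ensembl gene and library, made with cutadapt 1.18, HISAT2 2.1.0 and HTSeq 0.7.2, per the submitters' processing notes, which name the mouse build GRCm39 and DESeq2 1.16.1. The sources used here do not state the strand setting or the counting of multiply matching reads. Names, transcript lengths and sequences came from GENCODE M21 (GRCm38), so no coordinates are given. Each gene was given its longest protein-coding transcript, or its longest transcript where it had none coding. That transcript need not be the one expressed in MC38, and levels per kb and length trends rest on it. MC38 3G held 67.8% to 68.9% of the 12G counts of the same library with 0 features higher, so both were read as the same libraries, and 3G served as an alternative.

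All 9 MC38 12G libraries entered 1 fit in edgeR 4.0.16 (R 4.3.3) with TMM factors. Low-count features were removed with filterByExpr, given the groups. Tests were quasi-likelihood F tests (2-sided), with p-values adjusted by Benjamini-Hochberg over all 11676 tested features and a threshold of 0.05. SE was computed as |log2 fold change| / sqrt(F). Ratios were tested with exact permutation tests (scipy 1.17.1). Alternatives were other scalings and filters, DESeq2 1.42.0, only the groups compared, 3G counts, a replicate block, offsets that remove the lowess trend on length (span 0.3), and each library left out; for shares, classes of all listed tubulins were added after seeing the data. The procedure was tested on simulated data.

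The tubulins and the gene lists were chosen with earlier results of these data known. From each list, the text may name up to 2 called genes per direction with the smallest p and the most abundant gene not called; the 5 genes most like the tubulins were ranked by Pearson's r on log2(CPM + 1). Replicate numbers were not treated as pairs, although 3 libraries per group cannot exclude pairing.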

Additional observations from a re-analysis of the deposited data

How the results depend on the processing

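In labelled capture against input, 7 tubulins were lower and 0 higher in all 19 alternatives. Without the low-count filter, the median log2 fold change of all shared features rose by 0.105 in that comparison, and 65.4% of called features were higher in place of 49.3% (63.1% in place of 52.0% between the captures, and 62.3% in place of 50.2% in unlabelled capture against input). The tubulin median was then -0.23, beside 0.09 for all features. In labelled against unlabelled capture, the number of tubulins lower was 1 without the filter and 1 with 3G counts, the number higher was 0 with length-trend offsets, and leaving out libraries gave 0 to 1 higher and 1 to 3 lower. With 3G counts, Tuba1c was at -0.14 and Tubg1 at -0.16 in that comparison (edgeR adjusted p = 0.108 and 0.251). In unlabelled capture against input, 1136 features were lower with the replicate block and length-trend offsets. The cause was not tested.

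The replicate block left every tubulin call as it was, with 1652 features higher and 1694 lower in labelled capture against input, and 1244 and 1131 between the captures. Same-numbered libraries had correlations of deviations from -0.0670 to 0.196, with 1 of 9 pairs over 0.1, so the numbers were not read as pairs.

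Some values changed sign; in labelled capture against input Tbca, called lower in the report, was among them. In labelled capture against input, the log2 fold changes without the filter were 0.0516 for Tubb3, 0.0747 for Cnot6, 0.0951 for Pfdn2, 0.0138 for Tubgcp2 and 0.0120 for Ttll12. Pfdn2 was at 0.00275 with RLE size factors, 0.0298 with DESeq2 and 0.129 with 3G counts, and Cnot6 at 0.00741 with DESeq2. With length-trend offsets, Tubb3 was at 0.0664, Tbca at 0.240, Tbcb at 0.0375, Pfdn2 at 0.129 and Stmn1 at 0.147. With the replicate block added to those offsets, they were at 0.0665, 0.242, 0.0451, 0.134 and 0.147. Leaving out libraries gave Cnot6 from -0.105 to 0.0464 and Pfdn2 from -0.0629 to 0.0349.

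Between the captures, the tubulin median and Tubb4b were both at 0.0264 without the filter and both at 0.00401 with DESeq2. Dync1h1 was at 0.0218 without the filter and 0.0136 with 3G counts. With 3G counts, Tuba1b was at -0.00799 and Tubb2a at -0.128. With length-trend offsets, Tuba1b was at -0.00904 and Dync1h1 at 0.00315, and with the replicate block added, -0.00964 and 0.00254. Leaving out libraries gave Tuba1b from -0.0188 to 0.0599, Tubb4b from -0.0264 to 0.0178 and Dync1h1 from -0.0352 to 0.00797. In unlabelled capture against input, length-trend offsets put Tubb6 at 0.0439, Tubg1 at 0.0383 and Fau at 0.00119, and with the replicate block added, 0.0444, 0.0398 and 0.000358.

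Of the log2 differences in share with 3G counts, Tuba1b was at -0.00113 in labelled capture against input, -0.0387 between the captures and 0.0376 in unlabelled capture against input, Tubb2a at -0.0890 between the captures and Tubb4b at -0.0240 in labelled capture against input. With all listed alpha- and beta-tubulins in the classes, an alternative chosen after seeing the data, the Tubb4b share was at -0.01243 and the Tubb6 share at -0.01015 in labelled capture against input, and the Tubb5 share at -0.00347 between the captures. Leaving out libraries gave the Tuba1b share from -0.0146 to 0.0622, from -0.00151 to 0.0753 and from -0.0379 to 0.00319 in those comparisons, the Tubb4b share from -0.0458 to 0.0228 in unlabelled capture against input and the Tubb6 share from -0.0154 to 0.0820 in labelled capture against input. The cause of these changes was not tested.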

Other observations

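Unlabelled capture was also compared with input for genes that act on microtubules. Of the 27 microtubule-binding genes tested, 15 were higher and 0 lower in unlabelled capture than in input, with a median log2 fold change of 0.27. Of all tested features, 14.8% were called higher and 14.7% lower in that comparison. Of 23 motor genes, 8 were higher and 3 lower, and of 8 CCT chaperonin subunits, 0 were higher and 4 lower. The count of chaperonin subunits called lower was 1 to 5 over the 19 alternatives. By edgeR at an unadjusted p under 0.05, 1 microtubule-binding gene was lower and 0 chaperonin subunits were higher, and DESeq2 called 0 of either. With the length trend removed, the count of microtubule-binding genes called higher was 12, and 2 chaperonin subunits were lower.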
